A study of Mus musculus with 32 samples.

Results

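Hox genes encode homeodomain transcription factors that set position along the body axis. All genes whose mouse symbol is Hox followed by a cluster letter (a, b, c or d) and a number were taken from the deposited count and TPM tables, which gave 39 genes of 50600, the full set of 4 clusters. The Hoxa cluster held 11 of them on chromosome 6, Hoxb 10 on chromosome 11 (positions 96194316 to 96368256, GRCm38), Hoxc 9 on chromosome 15 (102921103 to 103036852) and Hoxd 9 on chromosome 2 (74668310 to 74765142). TPM, a transcript level per length, divides each count by the length of its gene and rescales every tumour to the same total, so that levels of different genes can be compared.

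Within a cluster, genes lie in order of paralogue group, from 1 to 13. Low-numbered (anterior) genes are switched on early and towards the head in the embryo, and high-numbered (posterior) genes later and towards the tail and the ends of the limbs. Cells of adult skin, dermal fibroblasts above all, keep much of this pattern, so the most posterior Hox genes expressed in a piece of skin carry a record of where it came from. Hoxc13 is an exception, since it is a gene of the growing hair shaft and nail at every site, and it was kept apart from the other posterior genes.

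The tables covered 32 primary mouse melanomas in 4 groups of 8, named Ecad male, Ecad female, ΔEcad male and ΔEcad female. All mice carried Tyr::NrasQ61K (an oncogenic Nras driven by the tyrosinase promoter, active in melanocytes), 1 lost copy of Cdkn2a (Cdkn2a-/+) and floxed Cdh1, the E-cadherin gene (Cdh1F/F), on a C57BL/6J background. Ecad mice had no Cre (°/°), and ΔEcad mice had, by the methods of the study, a Cre under the tyrosinase promoter that deletes Cdh1 in melanocytes; the sample labels write Tyr::NRAS/° in its place. Neither the age of the mice nor the body site of a tumour was given in the sources used here, so no reading of site from Hox genes could be checked against a record of it. Replicates are tumours, and nothing says that each came from a different animal, so p-values measure the spread between tumours.

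Total counts per tumour ranged from 24036333 to 63923086. Cdh1 reached 281.9 TPM in Ecad males, whose lowest tumour had 1384 counts, and spanned 0.79 to 65.2 TPM in ΔEcad males, 2.16 to 151.2 in Ecad females and 0.17 to 143.3 in ΔEcad females, so that the genotypes overlapped in both sexes. ΔEcad male 2 went against its label, with 6.41 TPM of Xist and 0 counts of Ddx3y, Uty, Kdm5d and Eif2s3y. ΔEcad male 7 went against its tissue label, with 31.5 TPM summed over 7 melanocytic markers (Sox10 at 0.49 TPM) where the other tumours had 5773 or more. Ecad female 3 held 18249 TPM of a salivary gland list, and ΔEcad female 3 held 4361 TPM of Col1a1. Some fold changes that leaned on ΔEcad male 7 or ΔEcad female 3 are also given without that tumour. Others, among them those of Hoxb5, Hoxc4, Hoxc5 and Hoxaas2, are given only with ΔEcad female 3, the highest ΔEcad female for each.

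The clusters also hold the miR-10 and miR-196 genes, small RNAs that silence Hox messages among others. Their mature sequences (RefSeq, GRCm38.p6) are shown because the Mir196a-1 locus, between Hoxb13 and Hoxb9, was called as higher in ΔEcad females. Capitals mark the seed (bases 2 to 8), which pairs with targets.
miR-196a-5p: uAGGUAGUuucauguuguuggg
miR-196b-5p: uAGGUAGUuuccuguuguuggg
miR-10a-5p: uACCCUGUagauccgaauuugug
miR-10b-5p: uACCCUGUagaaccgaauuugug
The miR-196 forms shared the seed AGGUAGU and differed at 1 base, A12C from miR-196a to miR-196b, counted from the 5′ end. The miR-10 forms shared ACCCUGU and differed by U12A from miR-10a to miR-10b. Each seed belonged to 2 of 1679 mature mouse sequences listed. miR-196a-5p has 2 loci, Mir196a-1 in Hoxb (chr11:96265187-96265208, strand +) and Mir196a-2 in Hoxc (chr15:102973365-102973386, strand +), while Mir196b lies in Hoxa (chr6:52230129-52230150, strand -), Mir10a in Hoxb (chr11:96317186-96317208, strand +) and Mir10b in Hoxd (chr2:74726074-74726096, strand +).

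Promoters (250 bases before to 50 after the start, RefSeq, GRCm38.p6) were found for 22 of the 39 genes, 24 promoters in all. Their median was 14.5 CpG pairs and 57.7% G and C, beside 7 pairs and 52.7% over all 32851 promoters listed. The 4 below are those of a pair of genes called in females (Hoxa5 and Hoxb8), of the gene present in most tumours (Hoxd8) and of the most posterior gene of Hoxd (Hoxd13). Capitals mark matches, on either strand, to TATAAA (the TATA box), TGATNNAT (a Hox and Pbx composite site) or TTTATNG (a site of Cdx and posterior Hox factors).
Hoxa5, chr6:52204538-52204837, strand -: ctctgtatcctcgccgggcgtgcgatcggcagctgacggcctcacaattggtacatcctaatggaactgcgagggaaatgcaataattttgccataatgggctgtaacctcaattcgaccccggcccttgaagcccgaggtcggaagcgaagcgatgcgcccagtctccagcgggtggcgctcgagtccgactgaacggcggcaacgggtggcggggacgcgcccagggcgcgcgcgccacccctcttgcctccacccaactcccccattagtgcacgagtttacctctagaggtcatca
Hoxb8, chr11:96281655-96281954, strand +: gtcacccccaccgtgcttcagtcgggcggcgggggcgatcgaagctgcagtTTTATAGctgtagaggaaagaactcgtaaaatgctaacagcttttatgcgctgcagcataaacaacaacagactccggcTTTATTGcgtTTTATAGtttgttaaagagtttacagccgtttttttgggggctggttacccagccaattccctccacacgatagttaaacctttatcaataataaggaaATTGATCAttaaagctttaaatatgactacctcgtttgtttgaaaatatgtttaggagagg
Hoxd8, chr2:74704365-74704664, strand +: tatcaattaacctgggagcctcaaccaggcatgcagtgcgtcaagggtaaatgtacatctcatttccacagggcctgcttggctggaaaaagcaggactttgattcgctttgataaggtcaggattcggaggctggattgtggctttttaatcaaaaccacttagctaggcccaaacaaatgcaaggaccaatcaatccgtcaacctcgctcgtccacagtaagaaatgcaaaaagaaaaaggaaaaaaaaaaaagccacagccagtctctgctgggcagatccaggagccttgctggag
Hoxd13, chr2:74667975-74668274, strand +: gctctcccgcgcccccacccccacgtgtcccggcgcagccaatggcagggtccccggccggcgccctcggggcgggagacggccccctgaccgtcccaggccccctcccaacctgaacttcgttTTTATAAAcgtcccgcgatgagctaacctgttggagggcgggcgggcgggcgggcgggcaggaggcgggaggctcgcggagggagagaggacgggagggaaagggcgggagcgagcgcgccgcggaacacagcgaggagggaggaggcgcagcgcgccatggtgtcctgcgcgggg
Hoxb8 matched all 3 motifs (its TATAAA matches overlap TTTATNG matches), Hoxd13 matched TATAAA on both strands in overlapping places, and Hoxa5 and Hoxd8 matched none. TATAAA was in 4 of the 24 Hox promoters and 13.6% of all promoters, TGATNNAT in 4 and 8.85%, and TTTATNG in 2 and 10.9%. A match is a description of the letters only.

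Summed over the 39 genes, Hox transcripts reached 4.83 to 574 TPM per tumour, with a median of 55.6. The sum had a median of 58.3 TPM in Ecad males (12.97 to 220), 26.9 in Ecad females (4.83 to 64.3), 47.6 in ΔEcad males (13.9 to 574) and 137 in ΔEcad females (21.5 to 392). Every group held tumours at the low end, and the Ecad females alone had none above 64.3. Members at 1 TPM or more, the level taken here as expressed, numbered 0 to 28 per tumour, with medians of 17.5, 7, 12 and 22 in the same order of groups.

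**Figure D1:**
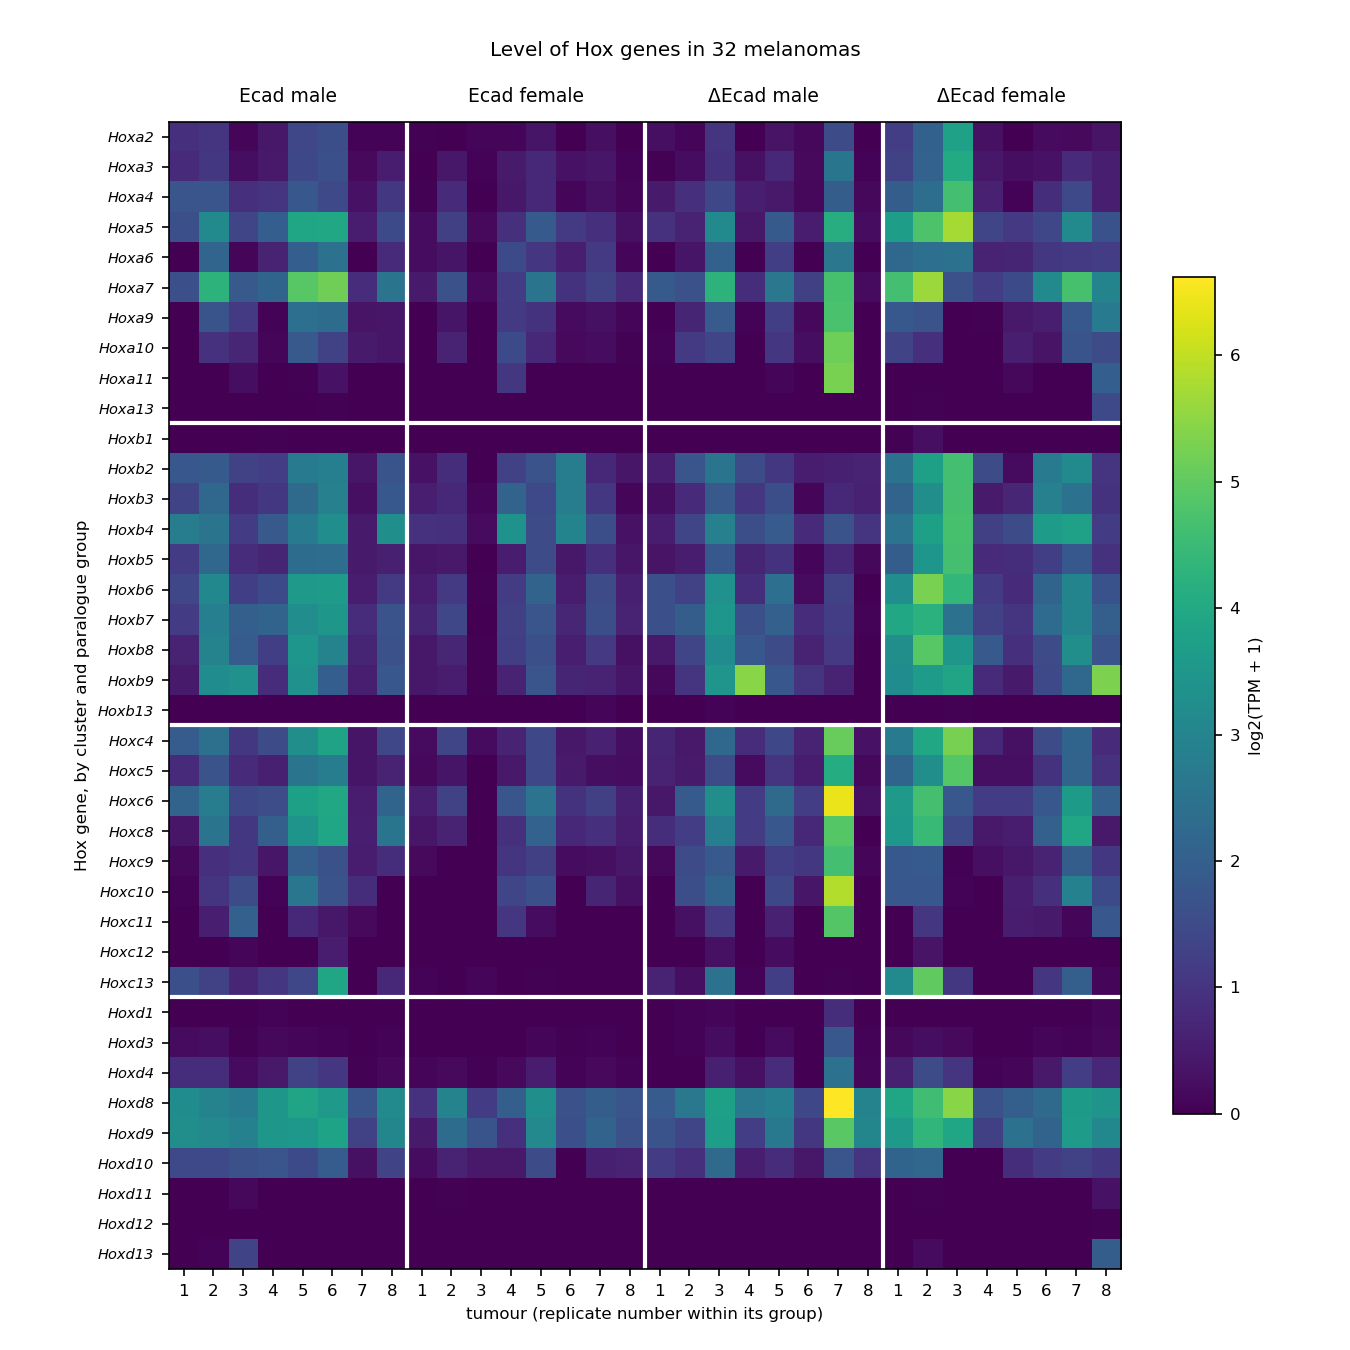
Level of each Hox gene shown (rows, by cluster and paralogue group) in each of 32 tumours (columns, by group and replicate number), as log2(TPM + 1) on the colour scale. Hoxd8 and Hoxd9 are present in most columns, ΔEcad male 7 is bright from Hoxa9 to Hoxa11 and from Hoxc4 to Hoxc11, and Hoxa13 and Hoxd13 reach 1 TPM in 1 and 2 columns.

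The most widespread members sat in the middle of Hoxd. Hoxd8 was at 1 TPM or more in 31 tumours (median 6.49, range 0.94 to 97.6 TPM) and Hoxd9 in 30 (median 6.00, range 0.40 to 29.3). Hoxa7, Hoxb4, Hoxb7 and Hoxc6 each reached 1 TPM in 25 tumours, with medians of 2.12 to 2.46 TPM. At the other end, Hoxb1, Hoxb13, Hoxc12, Hoxd1, Hoxd11 and Hoxd12 reached 1 TPM in none. Hoxb13, a gene of the prostate and tail end, had at most 2 counts in any tumour.

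Read by its most posterior member at 1 TPM or more, Hoxc13 aside, a tumour ended at paralogue group 9 in 11 cases, at group 10 in 14, at group 11 in 4 and at group 13 in 2, and 1 tumour (Ecad female 1) had no member at 1 TPM. Ecad males ended at group 9 in 1 tumour, at 10 in 6 and at 13 in 1. Ecad females ended at 9 in 5 tumours, at 10 in 1 and at 11 in 1. ΔEcad males ended at 9 in 2, at 10 in 4 and at 11 in 2. ΔEcad females ended at 9 in 3, at 10 in 3, at 11 in 1 and at 13 in 1. A fixed level of 1 TPM makes this reading depend on the Hox sum as well as on position. The 5 Ecad females that ended at group 9 had sums of 4.83 to 31.3 TPM. Other tumours went the other way, as ΔEcad female 3 ended at 9 with 391 TPM and ΔEcad male 8 at 10 with 18.5. The part of the sum in these endings was not tested.

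A posterior member (groups 9 to 13, Hoxc13 aside) was thus expressed in 8 Ecad males, 7 Ecad females, 8 ΔEcad males and 8 ΔEcad females of 8 each, a count that separated no groups. Leaving out Hoxd9 and Hoxd10, a choice made after the levels were seen, lowered it to 5, 2, 6 and 6 tumours. Raising the level to 5 TPM gave 7, 1, 5 and 5 tumours. Ecad females had the fewest tumours in each of these counts, by 1 tumour at 1 TPM, while the order of the other groups moved with the level and the members used. With 10 raw counts as the level, every group had 8 of 8. These counts were not tested.

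As a share of summed Hox TPM without Hoxc13, groups 9 to 13 made up a median of 21.4% in Ecad males (14.6 to 49.9), 22.7% in Ecad females (9.94 to 56.2), 28.5% in ΔEcad males (19.6 to 66.7) and 15.8% in ΔEcad females (7.05 to 63.5). Groups 5 to 8 had medians of 54.0 to 56.5% in all 4 groups of tumours. Groups 1 to 4 had medians of 14.8 to 20.1%. The ranges of all 3 bands overlapped between genotypes in each sex.

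**Figure D2:**
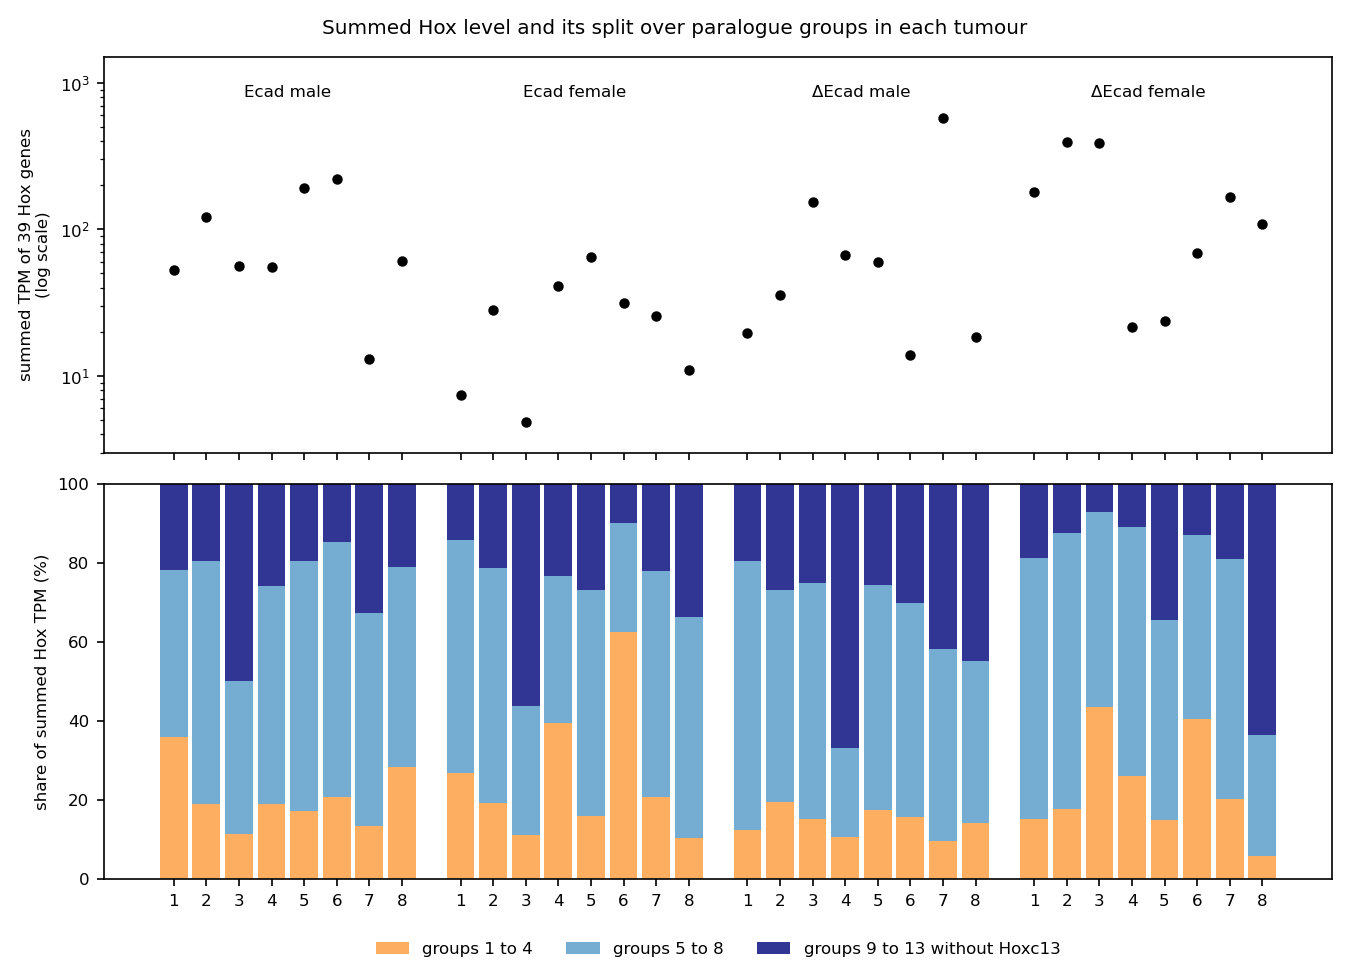
Top, summed TPM of 39 Hox genes in each tumour on a log scale. Bottom, the percent of that sum, without Hoxc13, in paralogue groups 1 to 4, 5 to 8 and 9 to 13 for the same tumours. The posterior share exceeds 50% in Ecad female 3, ΔEcad male 4 and ΔEcad female 8, and the anterior share exceeds 60% in Ecad female 6. The sum of Ecad female 3 is the lowest (4.83 TPM). Hoxb9 alone makes up 63.3% of the sum in ΔEcad male 4 and 36.1% in ΔEcad female 8.

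Single tumours carried distinct codes. ΔEcad female 8 was the most posterior, the 1 tumour with Hoxa13 at 1 TPM or more (1.73 TPM, 52 counts) and the higher of 2 with Hoxd13 at that level (2.89 TPM, 87 counts), genes of the digits, genital tubercle and tail. It also held Hoxa11 at 2.95 TPM, Hoxc11 at 2.49 and Hoxb9 at 39.01. The same tumour had the highest levels of Pitx1 (15.8 TPM) and Isl1 (14.1 TPM), factors of the hindlimb field. Tbx4, the other gene of the hindlimb list, did not share this. The list of 3 summed to 32.3 TPM there, and Tbx4 was highest in Ecad female 1 (62.3 TPM). Ecad male 3 was the other tumour with Hoxd13 at that level (1.57 TPM, 57 counts), with Hoxc11 at 3.11 TPM, Hoxa13 at 0 counts and Pitx1 at 0.10 TPM.

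ΔEcad male 7, the tumour nearly without melanocytic markers, had the largest Hox sum (574 TPM). Its levels peaked at Hoxd8 (97.6 TPM), Hoxc6 (84.8), Hoxc10 (57.2), Hoxa11 (38.3, 1128 counts) and Hoxa10 (34.9), while Hoxc12, Hoxd12, Hoxa13, Hoxb13 and Hoxd13 were at 0 TPM. Its Hoxb genes did not share this: none exceeded 2.21 TPM. It was also the 1 tumour with Cdx4, a caudal factor upstream of posterior Hox genes in the embryo, at 68.2 TPM, where no other tumour exceeded 0.18, and the 1 tumour with Hoxd3 over 1 TPM (2.46).

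ΔEcad female 3 had its highest levels among anterior and central genes. Hoxa2 to Hoxa5 stood at 12.8, 15.4, 24.1 and 52.0 TPM, each the highest of 32 tumours, and Hoxb2 to Hoxb5 at 24.09 to 25.02. Hoxa9, Hoxa10, Hoxa11 and Hoxc11 were at 0 TPM there, and Hoxc10 at 0.04, but Hoxb9 (13.6 TPM) and Hoxd9 (13.9 TPM) were each among the highest of all tumours. Its keratinocyte list summed to 3.9 TPM and its fibroblast list to 9190 TPM, the highest of all tumours.

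In a pair of tumours Hoxb9 stood high without its neighbours. In ΔEcad male 4 it reached 42.2 TPM beside 2.47 for Hoxb8, and in ΔEcad female 8 it reached 39.01 beside 2.25. The Mir196a-1 locus, upstream of Hoxb9, was highest in the same pair of tumours, at 127 and 283 TPM, and no other tumour exceeded 36.2. These are reads of the primary transcript over a short locus, since the libraries hold polyadenylated RNA and not mature miRNA. Hoxb2 to Hoxb4 without the rest marked Ecad female 6, with 5.86, 5.95 and 6.90 TPM beside 0.34 for Hoxb5.

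In the test across all genes (edgeR quasi-likelihood, all 32 tumours, 17717 genes after a filter on low counts), 29 of the 39 Hox genes could be tested, and a gene was called where its adjusted p (Benjamini-Hochberg) was under 0.05 and its log2 fold change passed 1 in either direction. In females, 4 Hox genes were called, Hoxc13, Hoxa4, Hoxa5 and Hoxb8, all higher in ΔEcad than in Ecad tumours. Of all genes tested 1.2% were called, 1.16% as higher. All 29 fold changes were positive, with a median of 2.54 on the log2 scale beside -0.02 for all genes tested, and 22 had an unadjusted p under 0.05 as higher, where 11.2% of all genes did. A member can pass the filter through the group in which it is high, so these totals describe the tested members only.

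By position, 9 of 9 tested genes of groups 1 to 4 had an unadjusted p under 0.05 in females, 10 of 11 of groups 5 to 8 and 3 of 9 of groups 9 to 13. The median log2 fold changes were 2.82, 3.12 and 1.81. The difference between bands was not tested. Fold changes ran from 1.62 to 4.44, from 1.70 to 3.70 and from 1.24 to 7.78 on the log2 scale. Hoxd8, a gene of the trunk, ranged from 0.94 to 8.85 TPM in Ecad females (median 2.62) and from 2.14 to 42.8 in ΔEcad females (median 10.5), 5 of them above every Ecad female, and its log2 fold change was 1.87 ± 0.65 (adjusted p = 0.113, edgeR).

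**Figure D3:**
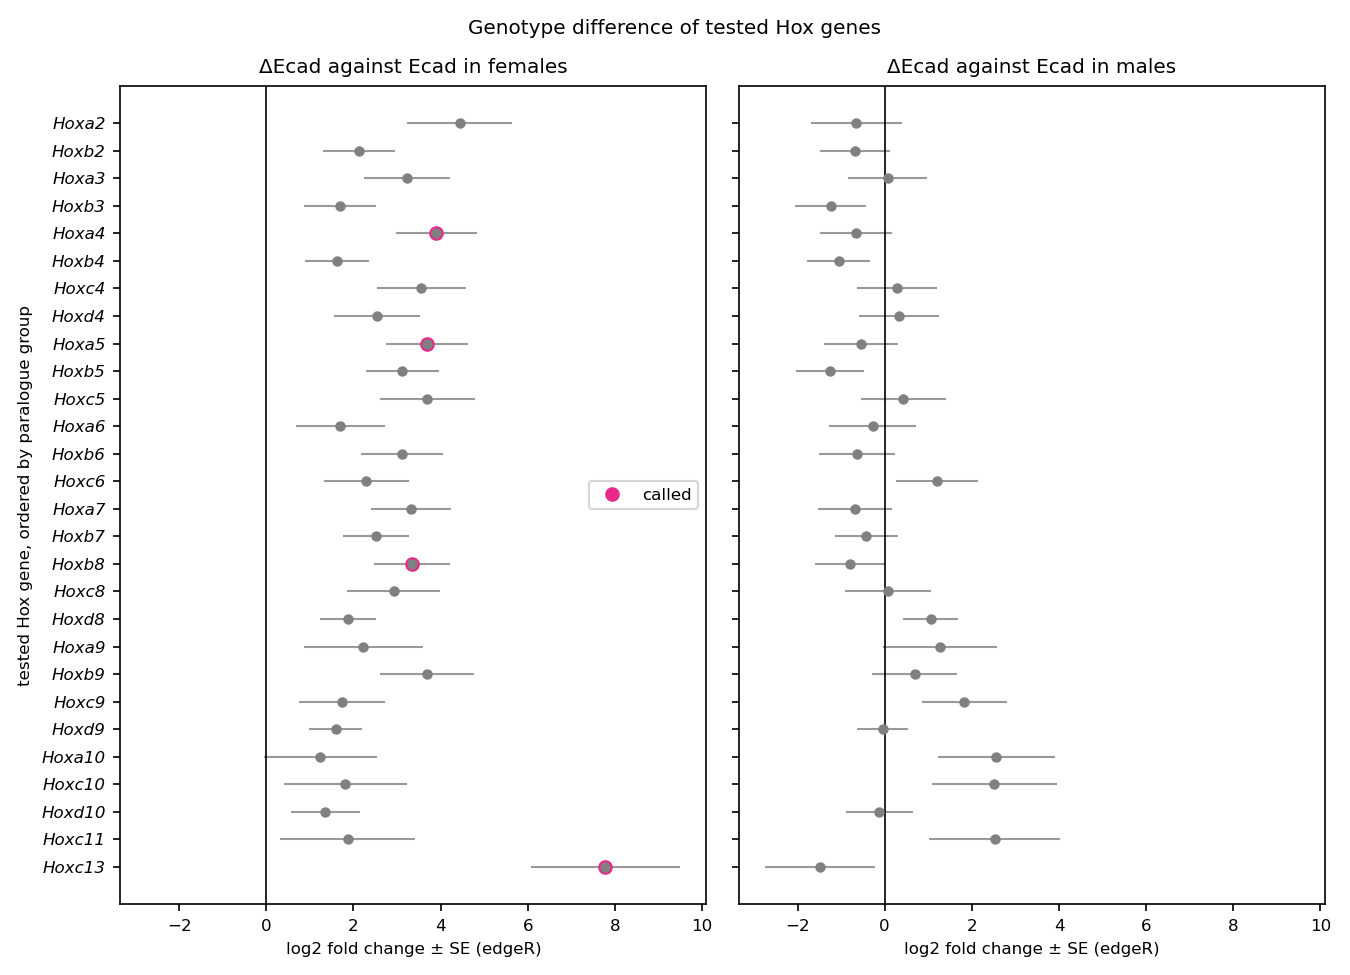
Log2 fold change ± SE (edgeR) of ΔEcad against Ecad tumours for each tested Hox gene shown, ordered by paralogue group, in females (left) and males (right), 8 tumours a group. All points lie to the right of 0 in females, where the 4 called genes are larger coloured dots, and on both sides of 0 in males, where none was called.

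Hoxc13 ranged in Ecad females from 0 to 0.06 TPM, with a median of 0 and at most 3 counts in any tumour, and in ΔEcad females from 0 to 31.2 TPM, with a median of 1.10. By counts, 5 of the ΔEcad females were above every Ecad female, with 30 to 1081, and the other 3 had 0 to 2, as low as the Ecad females. In TPM 6 were above, as ΔEcad female 8 had 0.07 TPM from 2 counts. Its log2 fold change was 7.78 ± 1.71 (SE, adjusted p = 0.0394, edgeR), a value that rests on 0 to 3 counts per Ecad tumour. Hoxa4, expressed in neck and upper trunk mesoderm, ranged from 0 to 0.72 TPM in Ecad females (median 0.16) and from 0.04 to 24.1 in ΔEcad females (median 1.28). Of the ΔEcad tumours 5 were above all Ecad tumours, and the log2 fold change was 3.90 ± 0.92 (adjusted p = 0.0394, edgeR).

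Hoxa5, a regulator of neck, lung and mammary development, ranged from 0.13 to 2.66 TPM in Ecad females (median 0.88) and from 1.16 to 52.0 in ΔEcad females (median 5.04). Of the ΔEcad tumours 4 exceeded all Ecad tumours and all 8 exceeded the Ecad median, and the log2 fold change was 3.69 ± 0.95 (adjusted p = 0.0490, edgeR). Hoxb8, whose message is a known target of miR-196, ranged from 0.02 to 2.09 TPM in Ecad females (median 0.55) and from 0.85 to 29.02 in ΔEcad females (median 5.60). Of the ΔEcad tumours 6 lay above all Ecad tumours, and the log2 fold change was 3.35 ± 0.87 (adjusted p = 0.0497, edgeR).

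The next members by p did not pass. In Hoxa, Hoxa2 ranged from 0 to 0.29 TPM in Ecad females (median 0.04) and from 0 to 12.8 in ΔEcad females (median 0.26), with a log2 fold change of 4.44 ± 1.20 (adjusted p = 0.0522, edgeR). Hoxa7 ranged from 0.13 to 4.88 TPM (median 1.10) and from 1.30 to 48.6 (median 7.41), with 3.32 ± 0.92 on the log2 scale (adjusted p = 0.0549, edgeR). The groups overlapped for both genes, as 3 and 5 of the ΔEcad females lay above every Ecad female.

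In Hoxb, Hoxb5 ranged from 0 to 1.92 TPM in Ecad females (median 0.36) and from 0.76 to 24.3 in ΔEcad females (median 1.96), with a log2 fold change of 3.12 ± 0.84 (adjusted p = 0.0518, edgeR). Hoxb9, a gene of the thorax and lumbar region, ranged from 0.02 to 2.34 TPM (median 0.51) and from 0.40 to 39.01 (median 5.94), with 3.69 ± 1.08 (adjusted p = 0.0660, edgeR). In Hoxc, Hoxc4 ranged from 0.14 to 1.71 TPM (median 0.43) and from 0.24 to 37.5 (median 2.66), with 3.56 ± 1.02 (adjusted p = 0.0595, edgeR). Hoxc5 ranged from 0 to 1.70 TPM (median 0.24) and from 0.20 to 28.1 (median 2.14), with 3.70 ± 1.08 (adjusted p = 0.0646, edgeR). For each of these 4 genes, 4 or 5 of the 8 ΔEcad females lay above all Ecad females and the rest lay among them. Hoxb5, Hoxc4 and Hoxc5 were highest in ΔEcad female 3, and their fold changes without that tumour are not given here.

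**Figure D4:**
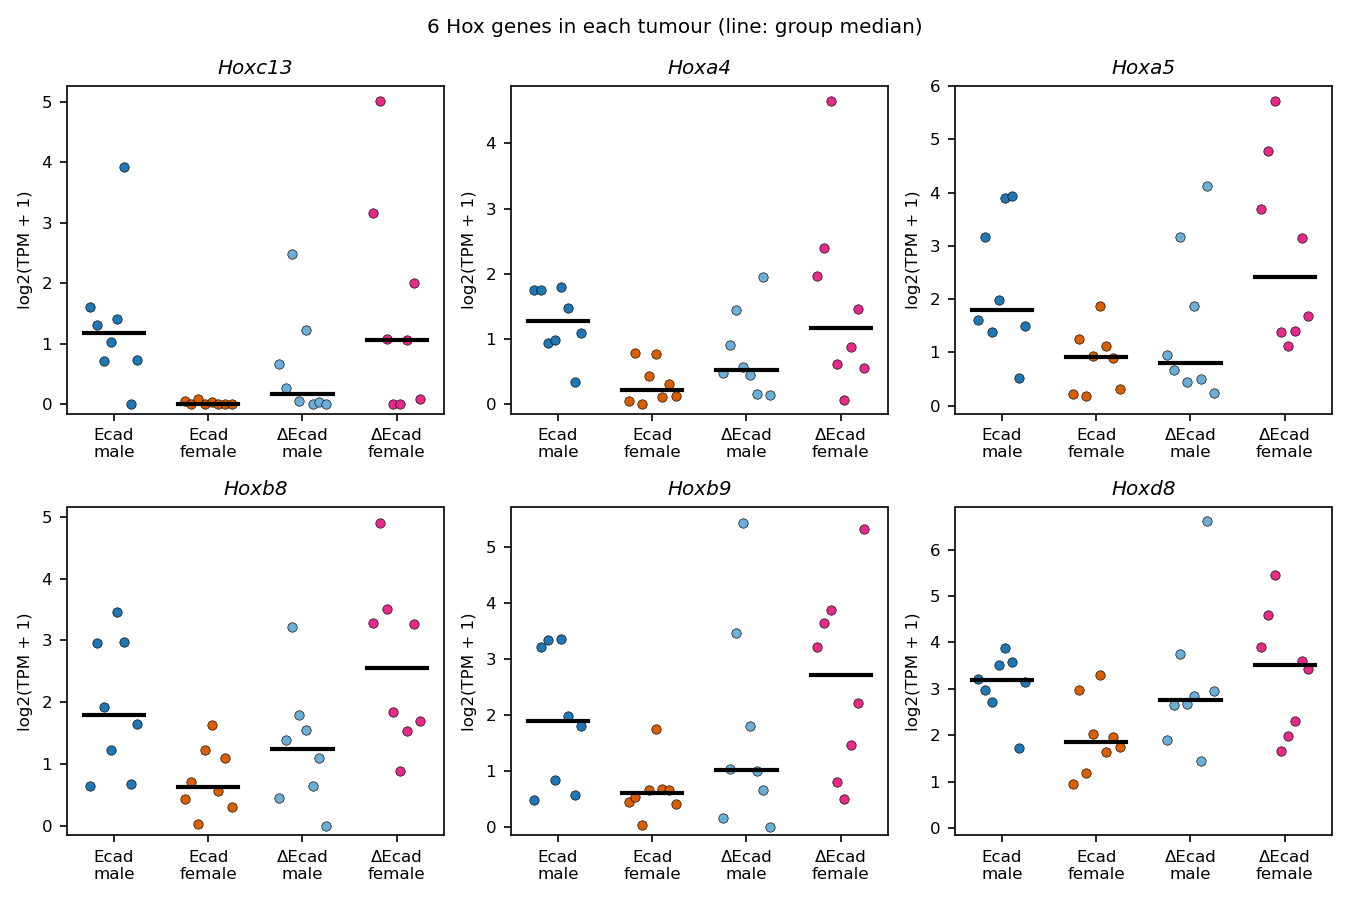
Level, as log2(TPM + 1), of Hoxc13, Hoxa4, Hoxa5, Hoxb8, Hoxb9 and Hoxd8 in each of 8 tumours per group, with a line at the group median. Hoxc13 is at or next to 0 in all Ecad females, the other genes overlap between groups, and single tumours of ΔEcad males lead Hoxb9 (42.2 TPM) and Hoxd8 (97.6 TPM).

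How many Hox genes were called in females rested on the method and on single tumours. DESeq2 called 18 (of all genes, 7.23%). A count of 0 came from limma voom, limma on log2(TPM + 1), a fit of the female tumours alone and a fit with tissue marker scores as covariates. The share of all genes called in those limma, female-only and covariate fits is not given here, so the 0 cannot be set against it. Leaving out 1 tumour gave 0 to 14 calls: 0 without Ecad female 1, 2, 3, 4, 6, 7 or 8 or ΔEcad female 1, 2 or 7, 2 without Ecad male 1, 2, 4, 5 or 8 or ΔEcad male 1, 2 or 5, 8 without Ecad male 7, ΔEcad male 8 or ΔEcad female 8, 11 without ΔEcad male 7, 13 without Ecad female 5 or ΔEcad female 5, and 14 without ΔEcad female 4. Calls over all genes moved in the same 32 fits from 1 to 695, lowest where no Hox gene was called and highest without ΔEcad female 4. In these fits all 29 fold changes stayed positive and 19 to 23 had an unadjusted p under 0.05. Without ΔEcad female 3 there were 3 calls, Hoxc13, Hoxa7 and Hoxb8, and the log2 fold changes were 2.54 ± 0.79 for Hoxa4 (adjusted p = 0.0696), 3.00 ± 0.90 for Hoxa5 (0.0624) and 2.97 ± 1.07 for Hoxa2 (0.129, all edgeR). Among the tumours left out, ΔEcad male 2 is the tumour whose sex-linked genes go against its label. Without ΔEcad male 7, ΔEcad female 3 and Ecad female 3 together, a set chosen after the data were seen, Hoxc13 and Hoxa7 were called.

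In males no Hox gene was called and none of the 29 had an unadjusted p under 0.05 with edgeR, where 0.0% of all genes were called and 10.2% had such a p. DESeq2 also called none (0.119% of all genes), with 2 at an unadjusted p under 0.05 (11.8%). The median log2 fold change was -0.13, beside 0.11 for all genes tested, and 13 of the 29 were positive. The smallest p belonged to Hoxa10, a gene of the lumbar region and thigh. It ranged from 0 to 2.63 TPM in Ecad males (median 0.52) and from 0 to 34.9 in ΔEcad males (median 0.63), with a log2 fold change of 2.56 ± 1.34 (adjusted p = 0.507, edgeR). The groups overlapped, and ΔEcad male 7 alone was above 2.63 TPM. By position, the median log2 fold changes in males were -0.65 for groups 1 to 4, -0.43 for groups 5 to 8 and 1.26 for groups 9 to 13. Without ΔEcad male 7 they were -1.16, -1.04 and -0.21, so the direction of the posterior groups turned. Hoxa10 then had a log2 fold change of -0.21 ± 1.16, Hoxc10 of -0.14 ± 1.28 and Hoxc11 of -1.02 ± 1.35, where they had 2.56, 2.52 and 2.52 with that tumour. Without ΔEcad male 2, whose sex-linked genes go against its label, the medians of the same bands in males were -0.71, -0.40 and 1.41. No Hox gene was called in males in that fit.

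The difference between the genotype effects of the sexes was tested as an interaction. No Hox gene was called, of 0.0% of all genes, and 17 had an unadjusted p under 0.05, all towards a higher fold change in females, where 10.7% of all genes did. The smallest adjusted p were 0.0509 for Hoxc13 (9.26 ± 2.08 on the log2 scale) and 0.0526 for Hoxb5 (4.38 ± 1.14). DESeq2 called 10 Hox genes (6.91% of all genes). Leaving out 1 tumour gave 0 to 8 calls, the most without ΔEcad male 3, 7 without Ecad female 5, 6 without Ecad male 7 or ΔEcad female 5, 5 without ΔEcad female 4, 4 without ΔEcad female 8, 3 without Ecad male 3 and 2 without Ecad male 8 or ΔEcad female 3, and calls over all genes ran from 0 to 848 in the same fits. Averaged over the sexes, ΔEcad against Ecad gave no call among Hox genes (0.0113% of all genes), with 17 higher at an unadjusted p under 0.05 (7.25%) and a median log2 fold change of 1.50, beside 0.07 for all genes. DESeq2 again called none (0.373%).

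Between the sexes, Ecad females and Ecad males differed in the opposite sense. All 29 log2 fold changes of female against male were negative (median -1.91, all genes 0.05), 17 had an unadjusted p under 0.05 as lower where 10.3% of all genes did, and none was called (0.0508% of all genes). Hoxc13 ranged from 0 to 14.2 TPM in Ecad males (median 1.27), 7 of which lay above every Ecad female, and had a log2 fold change of -6.71 ± 1.64 (adjusted p = 0.0869, edgeR). DESeq2 called 7 Hox genes here (5.77% of all genes), Hoxc13 and Hoxa7 among them. In ΔEcad tumours no Hox gene was called between the sexes (0.0395% of all genes), 7 were higher in females at an unadjusted p under 0.05 (3.32%), and DESeq2 called none (0.135%). The female genotype comparison, the interaction and the sex comparisons share groups of tumours and are not independent of each other.

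Tissue markers moved with these differences, and their part in them was not tested beyond the covariate fit. The 8 keratinocyte markers summed to a median of 5272 TPM in Ecad males (1.3 to 25019), 1.8 in Ecad females (0.2 to 1787), 523 in ΔEcad males (1.6 to 16898) and 6470 in ΔEcad females (1.7 to 42394). Krt14, the keratin of basal epidermis, had a median of 0.195 TPM in Ecad females and of 2792 in ΔEcad females. In females 7 of the 8 keratinocyte markers had an unadjusted p under 0.05 as higher in ΔEcad with edgeR, which called none, and DESeq2 called 6 of them. Of all genes in females, edgeR called 1.2% and DESeq2 7.23%, shares that apply to each list below. Up to 6 of the 8 were at 0 in an Ecad female and up to 7 in a ΔEcad female.

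The hair follicle list, of which 7 genes were in the table, summed to 0 to 4.2 TPM in Ecad females, 0 to 4045 in ΔEcad females, 0 to 436 in Ecad males and 0 to 298 in ΔEcad males. In females 6 of the 7 were called as higher (1.16% of all genes), Krt27 with a log2 fold change of 11.14 ± 2.41 (adjusted p = 0.0394, edgeR), Krt25, Krt35, Krt75, Msx2 and Tchh. Hoxc13 is itself a gene of that tissue, and the part of hair tissue in its difference was not tested. ΔEcad female 3 had Hoxc13 at 1.11 TPM and 0.04 TPM of the hair follicle list. The other ΔEcad females with Hoxc13 at 1 TPM or more had 189 to 4045 TPM of the list. The fibroblast list summed to 83.0 to 4207 TPM in Ecad females and 364 to 9190 in ΔEcad females, where 3 of 7 genes passed an unadjusted p of 0.05 with edgeR, which called none, and DESeq2 called 2. The melanocytic list had 1 of 7 lower at an unadjusted p under 0.05, and 2 of 3 tested salivary gland genes, Bpifa2 and Amy1, were called as lower by edgeR (median log2 fold change -7.54), being high in Ecad female 3, where DESeq2 called none of the 3 and had a median of 0.84. Among the endothelial, macrophage, T cell, skeletal muscle, adipocyte and mammary gland lists edgeR called no gene, and those at an unadjusted p under 0.05 were 1 skeletal muscle gene and 5 adipocyte genes. DESeq2 called 1 skeletal muscle gene and 4 adipocyte genes.

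With the mean levels of the keratinocyte, fibroblast and melanocytic markers as covariates, the median log2 fold change of the 29 Hox genes in females was 1.02, 23 were positive and 10 had an unadjusted p under 0.05, as against 2.54, 29 and 22 without them. None was called, and the smallest adjusted p was 0.464 (Hoxa4, edgeR). The share of all genes with such an unadjusted p in that fit is not given here, so the 10 cannot be set against it. Bulk tumour RNA cannot tell fewer cells of a type from less RNA per cell, for Hox genes as for the markers.

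**Figure D5:**
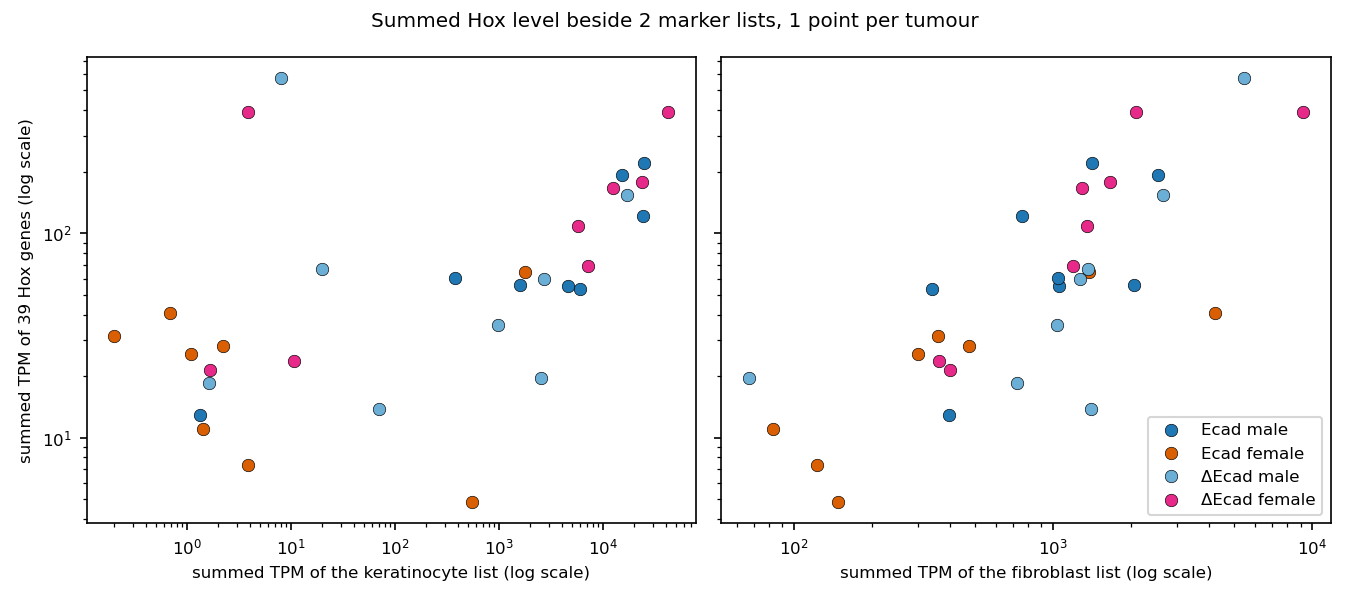
Summed TPM of 39 Hox genes in each tumour against the summed TPM of the keratinocyte list (left) and of the fibroblast list (right), all on log scales and coloured by group. The tumour with the most keratinocyte markers (42394 TPM) holds 392 TPM of Hox genes, while ΔEcad male 7 and ΔEcad female 3 hold 574 and 391 TPM of Hox genes with 8.0 and 3.9 TPM of those markers and lie at the right in the fibroblast panel.

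Other transcripts of the clusters were read from a list of 17 neighbours, of which 6 could be tested. In females all 6 were higher at an unadjusted p under 0.05 (11.2% of all genes) and 2 were called (1.2% of all genes). Mir196a-1 ranged from 0 to 2.53 TPM in Ecad females, with 7 of 8 tumours at 0, and from 0 to 283 in ΔEcad females (median 9.99), with a log2 fold change of 6.63 ± 1.66 (adjusted p = 0.0463, edgeR). Hoxaas2, an antisense transcript over Hoxa3, ranged from 0 to 0.13 TPM and from 0 to 18.5 (median 0.155), the 18.5 being ΔEcad female 3, with 5.45 ± 1.37 (adjusted p = 0.0464, edgeR). The list members with the highest medians were Hotairm1 (1.40 TPM), Hoxd3os1 (0.91) and Mir196a-1 (0.80). How strand entered the counting is not given in the sources used here, so Hoxaas2 and Hoxa3, which share exon bases on opposite strands, cannot be told apart with certainty.

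Factors that bind or regulate Hox genes were tested in females with edgeR, and DESeq2 where named. Of 9 TALE cofactors (Pbx, Meis and Pknox proteins, which bind DNA with Hox proteins) edgeR called none and DESeq2 1, and 1, Meis1, had an unadjusted p under 0.05, with a median log2 fold change of 0.18 over the list. Pbx2 and Meis3 were the most abundant (medians of 49.5 and 14.3 TPM). Of 14 Polycomb genes, which keep Hox genes silent, and 7 Trithorax genes, which keep them active, neither tool called any and none had an unadjusted p under 0.05 with either. The median log2 fold changes were 0.00 and -0.14, and Cbx6 (39.5 TPM), Pcgf2 and Bmi1, and Men1 (41.6 TPM), Kdm6b and Wdr5 led them. Of 8 Cdx and retinoid genes 5 were tested, edgeR called none and DESeq2 1, and 2 had an unadjusted p under 0.05, with Rarg (83.9 TPM), Rarb and Cyp26b1 in the lead.

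Position genes outside the clusters were also read. In the female comparison edgeR called 1.2% of all genes and DESeq2 7.23%. Of 11 head genes 6 were tested, edgeR called none and DESeq2 3, and 4 had an unadjusted p under 0.05 as higher in ΔEcad females with edgeR, and Alx1 (median 10.3 TPM), Lhx6 (0.79) and Dlx5 (0.38) had the highest medians. Of 3 hindlimb genes edgeR called none and DESeq2 1, and 1, Isl1, had an unadjusted p under 0.05 with edgeR. Tbx4, the hindlimb T-box factor, had a median of 4.20 TPM and reached 62.3 in Ecad female 1, a tumour without any Hox gene at 1 TPM. Tbx5, its forelimb counterpart, stayed at or under 0.96 TPM and was not tested. Of 6 limb and trunk genes edgeR called none and DESeq2 3, and 5 had an unadjusted p under 0.05 with edgeR, and Tbx15 (5.71 TPM), En1 (1.84) and Shox2 (1.47) led the list.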

How the data were processed

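RNA of 32 primary melanomas was sequenced (TruSeq stranded mRNA libraries, paired-end reads). The authors mapped reads with STAR to GRCm38.p5 (mm10) with GENCODE M13 and deposited raw counts per gene and TPM, with FastQC 0.11.5 named in the submitters' processing notes. The STAR version and strand setting are not given in the sources used here, and batch correction is described only where applicable. For 996 genes over 2000 counts in every tumour, the deposited TPM was the count rescaled by 1 length per gene within 0.0685%. Symbols came from GENCODE M21, which left 224 of 50600 identifiers unnamed. Exon bases were shared with another gene by 16 of the 39 Hox genes, most for Hoxd3 (62.8%), Hoxb3 (52.9%) and Hoxd4 (52.3%), whose values are uncertain.

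Counts were tested with edgeR 4.0.16 in R 4.3.3 (TMM, filterByExpr by group, robust quasi-likelihood, 1 coefficient per group, common dispersion 0.624). Alternatives used DESeq2 1.42.0 and limma 3.58.1. The fit was also run on simulated data with known changes, and the outcome is not given here. A count of 0 allows up to 3 counts, and such floors cover counting error only. The highest correlation between 2 tumours was 0.963, and none was treated as a duplicate. Members and lists were chosen with earlier results of these data known. Full statistics went to Hox genes called in any comparison, to the 10 with the smallest p in the female genotype comparison and to untested ones reaching 1 TPM. Some genes are not reported here by name. In other lists, called genes and the 3 with the highest median TPM were named, and further genes were named after their values were seen where a result turned on them. Replicate numbers were not used as a pairing, as the mean correlation of same-numbered tumours was -0.000233.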

Additional observations from a re-analysis of the deposited data

Results flagged for a closer look

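Levels of the 29 tested Hox genes (log2 CPM) and the summed level (log2 TPM) were compared within each group of 8 tumours. A tumour was singled out where its gap to the nearest other exceeded Dixon's critical share of the group's range. Of 120 groups of values 8 were singled out, and chance does so for about 1 in 20. Ecad male 7 was lowest of its group for Hoxa4 (-2.54), Hoxd10 (-2.54) and Hoxd9 (0.17), and it also had the lowest Hox sum of the Ecad males. Ecad female 3, the tumour with salivary gland transcripts, was lowest for Hoxb5, Hoxb7 and Hoxc6, each at -5.19, the value of a count of 0. ΔEcad male 8 was lowest for Hoxb8, also at -5.19. ΔEcad male 7, which nearly lacked melanocytic markers, was highest for Hoxd8 (6.35). With edgeR no difference between the genotype effects of the sexes passed the test, while DESeq2 called 10 Hox genes there.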

How the results depend on the processing

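Of the main results, the counts of called Hox genes in males, averaged over sexes and between the sexes in ΔEcad tumours stayed at 0 in every alternative run. Sex in Ecad tumours stayed at 0 except with DESeq2 (7). In females (4 called), DESeq2 gave 18, no low-count filter 7 and a minimum of 1 CPM in 8 tumours 2. limma on log2(TPM + 1), limma voom, marker scores as covariates and only the tumours compared each gave 0, and leaving out 3 tumours of other tissue content, added after the data were seen, 2. For the interaction (0 called), DESeq2 gave 10, RLE size factors and no low-count filter 2 each, and leaving out the 3 tumours 4. Of all genes, DESeq2 called 7.23% in females and 6.91% in the interaction. For the other settings named so far that share is not given here, so their counts of Hox genes cannot be set against it. Leaving out 1 tumour at a time gave 0 to 14 in females and 0 to 8 in the interaction, where calls over all genes ran from 1 to 695 and from 0 to 848, and Hoxc13 was called in females in 22 and Hoxa4 in 21 of the 32 fits. Over all settings that could be fitted, Hoxc13 was called in 28 of 42 and its adjusted p spanned 1.04e-05 to 0.501. The cause of these moves was not tested. A fit with the replicate number as a block called 0 in females and changed no other count. Of 48 same-numbered pairs 18 were correlated over 0.1. Their mean correlation was -0.000233, beside 0.00177 for tumours of different number and group, so no pairing by number was seen on average. The median log2 fold change of all genes was 0.11 in males and -0.16 in the interaction, and on log2(TPM + 1) it was -0.16 and 0.18.

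For the count of tumours with a posterior member at 1 TPM, 5 TPM gave 1 Ecad female, 5 ΔEcad males and 5 ΔEcad females, 10 raw counts gave 8 Ecad females, and leaving out Hoxd9 and Hoxd10, added after the data were seen, gave 5 Ecad males and 2 Ecad females. Of 117 values of single genes under alternatives, 26 fell short of the threshold, 12 passed it anew and none reversed. Depth limits members near 0, such as Hoxb13, Hoxd12 and Hoxb1.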
